A study of Caenorhabditis elegans with 6 samples.

Results

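The canonical Wnt pathway is built around a scaffold that keeps beta-catenin low. Axin and APC bind beta-catenin, casein kinase 1 and GSK3 phosphorylate it, and it is then destroyed. When a Wnt reaches a Frizzled receptor, Dishevelled disables the scaffold and beta-catenin enters the nucleus, where it turns the DNA-binding factor TCF into an activator. Without it, TCF can repress together with Groucho corepressors, the family to which UNC-37 belongs. Caenorhabditis elegans divides the work of beta-catenin among separate genes. BAR-1 serves the canonical route, WRM-1 and SYS-1 act in asymmetric cell division, and HMP-2 is the beta-catenin of adherens junctions. Earlier genetic work placed Frizzled receptors upstream of the homeodomain gene ceh-12 in A-class motor neurons of unc-4 and unc-37 mutants. That work gives the question here, which is whether transcripts of the machinery behind those receptors differ between mutant and wild-type neurons.

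Examined were 10 genes: the beta-catenins bar-1, wrm-1, hmp-2 and sys-1, the TCF gene pop-1, the axins pry-1 and axl-1, the APC gene apr-1, the GSK3 gene gsk-3 and the casein kinase 1 gene kin-19. They were taken by function and by no rule on their values, though earlier results of these data were known at the time. Every probe set that the platform's gene table assigns to one of them alone was used. This gave 15 of the 22548 probe sets on the array, 1 for each of 5 genes and 2 for each of the other 5. No probe set named a member together with another gene.

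Poly(A) RNA came from L2 larvae grown at 25 °C, 3 samples of unc-37(e262) mutants and 3 of the wild-type strain N2, each on its own 1-colour array and called a biological replicate in the labels. In both genotypes it was pulled down by way of a FLAG tag on the poly(A)-binding protein PAB-1, with the unc-4 promoter driving it in the DA and VA neurons, which drive backward movement. That promoter is also known to be active in a few other neurons. The nature of the e262 lesion is not given in the labels. Array numbers were 89, 92 and 98 for unc-37 and 73, 80 and 85 for wild type, so a drift along that numbering and the genotype cannot be told apart.

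The unc-37 transcript had intensities of 477.5, 547 and 506 on unc-37 arrays and 371.5, 350 and 360 on wild-type arrays. All 8 A-class and cholinergic markers were higher in unc-37 by the limma test used throughout (adjusted p below 0.05 over all probe sets). They included unc-4 (log2 difference 2.74 ± 0.31 SE, adjusted p = 0.00245), whose promoter drove the tag, and unc-17, the vesicular acetylcholine transporter gene (1.17 ± 0.14, adjusted p = 0.00298). The unc-17 value came from a probe set of the _x_at kind, which can bind related transcripts. Of 17 pan-neuronal genes 11 were higher and none lower, with a mean log2 level of 8.32 to 8.45 on unc-37 arrays and 7.74 to 7.89 on wild-type arrays. Markers of other tissues were measured too: the mean of 9 body wall muscle genes lay between 9.53 and 9.88 on unc-37 arrays and between 9.55 and 9.94 on wild-type arrays, with none called. Of 9 intestinal genes 1 lay above 0 (median -0.14), with means of 8.26 to 8.62 on unc-37 arrays and 8.61 to 8.75 on wild-type arrays, and of 5 pharyngeal genes 1 lay above 0 (median -0.09), none of them called. In these pull-downs, cell number, RNA per cell and the yield of the pull-down over other RNA cannot be told apart.

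None of the 10 genes was called by that test. Of their 15 probe sets 0 were called by limma, against 6.42% of all probe sets on the array. At the brightest probe set of each gene 0 of 10 were called, against 6.75% of 17118 genes. With so few members a count of 0 lies near those shares, and it is no result about the members. An unadjusted p below 0.05 was reached by 2 of the 15, those of hmp-2 and bar-1, against 20.8% of all probe sets. The same pair were the only members whose arrays did not overlap between genotypes, 13.3% of the 15 against 25.9% of all probe sets. The median size of the difference, whatever its sign, was 0.07 on the log2 scale for the members and 0.13 for all probe sets. Their median signed difference was 0.02, beside -0.01 for all probe sets. Of the 15, 9 lay above 0 and 6 below.

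**Figure D1:**
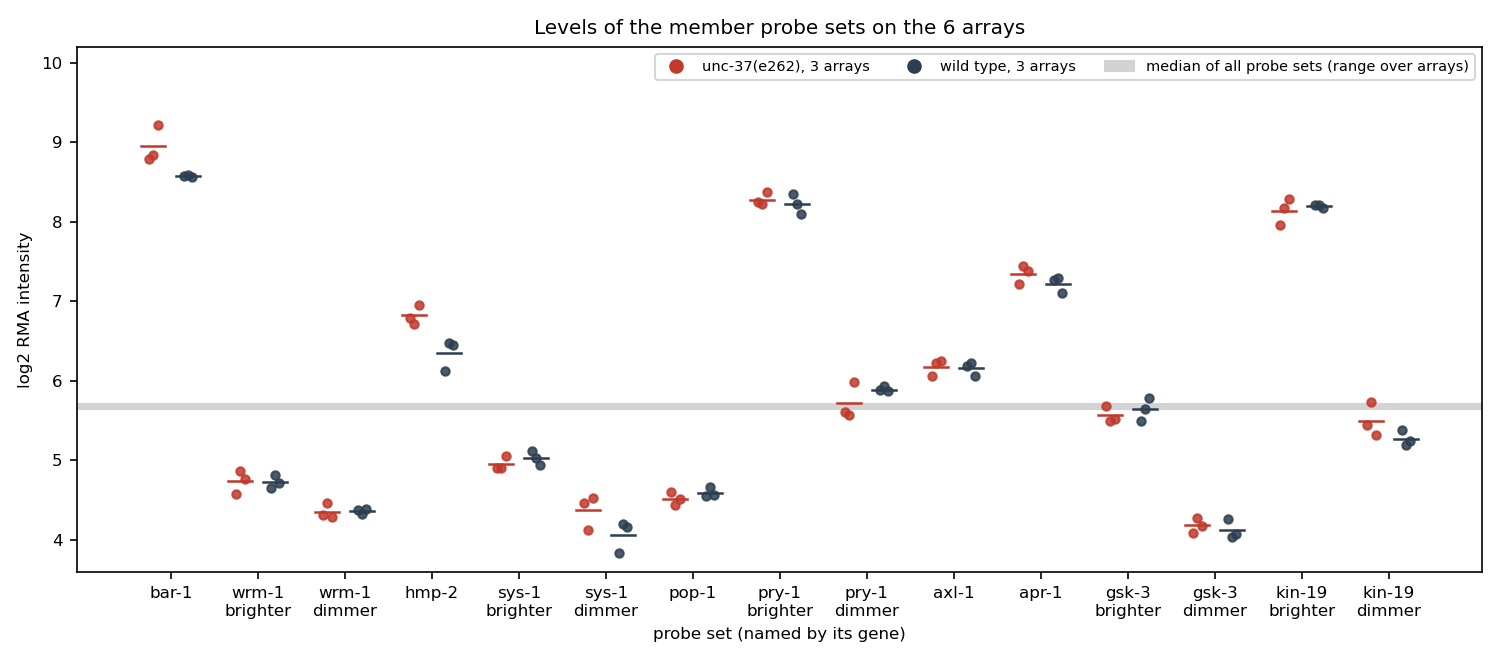
Log2 RMA intensity of each of the 15 probe sets on the 3 unc-37(e262) arrays (left in each pair, red) and the 3 wild-type arrays (right, dark), with group means as bars. The groups stand apart for bar-1 and hmp-2 and overlap for the others. Heights of different probe sets are not comparable as amounts of RNA.

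Among the beta-catenins, hmp-2 showed the largest difference. HMP-2 links the cadherin HMR-1 to the alpha-catenin HMP-1 at adherens junctions. Its intensity was 111, 106 and 125 on unc-37 arrays and 69.3, 89.5 and 87.2 on wild-type arrays. Every unc-37 array lay above every wild-type array, and wild-type replicate 1 was the lowest of the 6. On the log2 scale hmp-2 averaged 6.83 ± 0.12 in unc-37 and 6.35 ± 0.20 in wild type (SD, n = 3 each). The difference of 0.48 ± 0.12 (SE), or 1.39-fold with a 95% interval of 1.15 to 1.70, had an adjusted p of 0.0597 and so just missed the threshold. It passed with array weights (adjusted p = 0.035) and with each array centred on its median (0.0461), and without wild-type replicate 1 it was 0.36 (0.169). Those are also the lowest and highest adjusted p over all 15 alternatives, 0.035 and 0.169.

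Markers of some of the cells that could carry hmp-2 lay on both sides of 0. Of 11 hypodermal markers on the array, cells with well-known adherens junctions, none was called higher and dpy-13 was called lower (-0.91 ± 0.22, adjusted p = 0.0451), with a median difference of 0.32 and 7 of them above 0. Their mean log2 level was 8.38 to 8.75 on unc-37 arrays and 8.30 to 8.61 on wild-type arrays. dpy-7, a cuticle collagen gene of the hypodermis, was at 0.59 ± 0.24 and not called (adjusted p = 0.204). The uncalled hypodermal markers nearest the threshold were the collagen gene dpy-2 (0.82, adjusted p = 0.0527), the GATA factor gene elt-1 (0.39, adjusted p = 0.0527) and the nuclear receptor gene nhr-25 (-0.39, adjusted p = 0.0535), whose groups did not overlap. Of 6 seam cell markers on the array grd-10, a hedgehog-related gene, was lower (-0.66 ± 0.15, adjusted p = 0.0358) and 5 gave no call, with means of 7.17 to 7.31 on unc-37 arrays and 7.35 to 7.40 on wild-type arrays. Of the 17 pan-neuronal genes 11 were higher in the same arrays and 6 were not called, with a median difference of 0.67. The intestinal and pharyngeal lists given above lay mostly below 0, with medians of -0.14 and -0.09 and no call. The part of any of these cells in the hmp-2 values was not tested.

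bar-1 encodes the beta-catenin that, with POP-1, turns on targets such as Hox genes in canonical Wnt signalling. Its single probe set had intensities of 442, 460 and 596 on unc-37 arrays and 384, 385 and 376.5 on wild-type arrays. The wild-type arrays lay close together and below all unc-37 arrays, of which replicate 3 stood highest. The log2 means were 8.95 ± 0.24 in unc-37 and 8.58 ± 0.02 in wild type (SD, n = 3 each). The difference of 0.37 ± 0.12 (SE), 1.30-fold with a 95% interval of 1.07 to 1.58, was not called (adjusted p = 0.126). Without unc-37 replicate 3 it was 0.24, so that 1 array carried part of its size. Over 15 alternatives its adjusted p ran from 0.0969 to 0.324.

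sys-1 encodes a divergent beta-catenin that joins POP-1 as a coactivator after asymmetric divisions. Its brighter probe set had intensities of 30.0, 29.9 and 33.4 on unc-37 arrays and 34.7, 32.6 and 30.7 on wild-type arrays. The groups overlapped, and the difference was -0.07 ± 0.09 (adjusted p = 0.730). The dimmer one gave 22.2, 17.5 and 23.1 on unc-37 arrays and 14.2, 18.4 and 17.8 on wild-type arrays, a difference of 0.32 ± 0.14 (adjusted p = 0.258). The probe sets thus differed in sign. The log2 ratio of the brighter to the dimmer differed by -0.39, unc-37 minus wild type, with p = 0.1 in an exact two-sided permutation test over the 6 arrays, the smallest p that 3 against 3 allows, and 0.5 adjusted over the 5 genes with 2 probe sets.

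wrm-1 encodes the beta-catenin that, with the kinase LIT-1, drives POP-1 out of the nucleus of one daughter cell. Its brighter probe set had intensities of 23.9, 29.3 and 27.3 on unc-37 arrays and 25.0, 28.2 and 26.2 on wild-type arrays, and its dimmer one 19.8, 22 and 19.5 on unc-37 arrays and 20.8, 20.1 and 21 on wild-type arrays. In both the groups overlapped. The log2 differences of 0.02 ± 0.11 and -0.02 ± 0.09 were smaller than their errors (adjusted p = 0.959 and 0.948), and the intervals reached no further than 0.855 to 1.19-fold and 0.859 to 1.14-fold. wrm-1 and sys-1 lay below the median of all probe sets on every array in both of their probe sets, as did pop-1. Such dim probe sets may carry little signal over background, so a difference in these transcripts could be hidden. RMA values give no detection call.

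pop-1 is the TCF/LEF factor on which the nuclear beta-catenins act. Its probe set had intensities of 24.2, 21.7 and 22.9 on unc-37 arrays and 23.4, 25.3 and 23.6 on wild-type arrays, and the groups overlapped. It averaged 4.52 ± 0.08 in unc-37 and 4.59 ± 0.06 in wild type on the log2 scale (SD, n = 3 each). The difference was -0.07 ± 0.09 (SE, adjusted p = 0.710), with an interval of 0.825 to 1.09-fold.

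**Figure D2:**
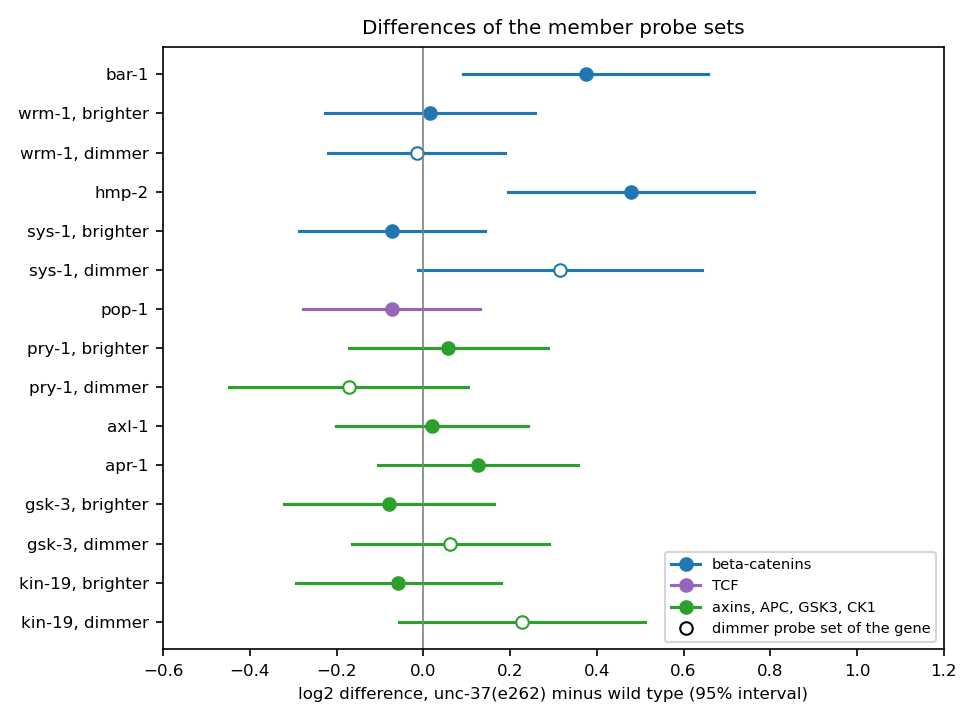
Log2 difference of each probe set, unc-37(e262) minus wild type, with its 95% interval from the moderated fit. Filled points are the only or brighter probe set of a gene and open points the dimmer one. The intervals of hmp-2 and bar-1 lie above 0 before adjustment, and those of the other 13 probe sets span it.

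For the 5 genes of the destruction complex, estimates at the brightest probe sets lay near 0. This does not show that the transcripts were unchanged. At those probe sets the log2 differences ran from -0.08 for gsk-3 to 0.13 for apr-1, and all 5 intervals lay between 0.80 and 1.28-fold. Over all 8 of their probe sets the differences ran from -0.17 to 0.23, with 5 above 0, and the groups overlapped in each. Their intervals were wider, reaching 0.73-fold for the dimmer pry-1 probe set and 1.43-fold for the dimmer kin-19 one.

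pry-1 encodes the axin of the canonical pathway, the scaffold that restrains BAR-1. Its brighter probe set had intensities of 304, 298 and 332 on unc-37 arrays and 327, 299 and 274 on wild-type arrays. The highest and the lowest values were 1 of each genotype, and the difference was 0.06 ± 0.10 (adjusted p = 0.808). The dimmer one gave 48.7, 47.6 and 63.0 on unc-37 arrays and 58.8, 60.9 and 58.4 on wild-type arrays, a difference of -0.17 ± 0.12 (adjusted p = 0.475). There unc-37 replicate 3 was above all wild-type arrays and the other 2 unc-37 arrays below them. axl-1, the axin-like gene that overlaps with pry-1 in function, was at 66.6, 74.8 and 75.9 on unc-37 arrays and 72.8, 75.0 and 66.5 on wild-type arrays. Its difference was 0.02 ± 0.10 (adjusted p = 0.938), the smallest of the complex.

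apr-1, which encodes the APC-related protein, had intensities of 149, 175 and 166 on unc-37 arrays and 154, 156 and 138 on wild-type arrays. The ranges of the genotypes overlapped, and the difference of 0.13 ± 0.10 was not called (adjusted p = 0.537). gsk-3 encodes the kinase that phosphorylates beta-catenin for destruction. Its brighter probe set had intensities of 51.5, 45.3 and 45.8 on unc-37 arrays and 45.4, 50.1 and 55.3 on wild-type arrays, and its dimmer one 17.1, 19.5 and 18.1 on unc-37 arrays and 19.1, 16.5 and 16.8 on wild-type arrays. The differences of -0.08 ± 0.11 and 0.06 ± 0.10 were not called (adjusted p = 0.739 and 0.787). The dimmer one lay below the median of all probe sets on every array.

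kin-19 encodes a casein kinase 1 alpha that acts with APR-1. Its brighter probe set had intensities of 250, 289 and 312 on unc-37 arrays and 296.5, 295 and 291 on wild-type arrays. The wild-type arrays lay within the unc-37 range, and the difference was -0.06 ± 0.10 (adjusted p = 0.811). The dimmer one was at 43.6, 53.4 and 39.9 on unc-37 arrays and 41.7, 36.6 and 37.8 on wild-type arrays, with a difference of 0.23 ± 0.12 (adjusted p = 0.347). For wrm-1, pry-1, gsk-3 and kin-19 the exact permutation test of the 2 probe sets gave p = 0.2 to 0.9 before adjustment and 0.5 to 0.9 after it.

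The rest of the pathway was read from 50 further genes, all of them on the array, each at its brightest probe set. Of these 10 rose and none fell, or 20% higher against 3.94% of all genes called higher and 2.81% called lower, and their median difference was 0.17 beside -0.01 for all genes. In 22 of the 50, or 44%, the arrays did not overlap between genotypes, against 26.4% of all genes. Several of these genes were already known to be high in these arrays when the list was written, so its counts are a description and no independent evidence of a direction. Whether they differ from the 0 of 10 above was not tested. In the same arrays the 17 pan-neuronal genes had a median difference of 0.67, with 11 called higher. For the 8 A-class and cholinergic markers the median was 1.03, with all 8 called higher. The part of those neuronal differences in the pathway values was not tested.

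Upstream of the complex, 3 of 6 Wnt receptors rose. The Frizzled gene mig-1 had intensities of 332, 311 and 483 on unc-37 arrays and 189, 183.5 and 182 on wild-type arrays, a difference of 0.99 ± 0.16 (adjusted p = 0.00993), and its second probe set was called too (0.83, adjusted p = 0.00643). mom-5, a second Frizzled gene, differed by 0.83 ± 0.14 (adjusted p = 0.0113) and cam-1, a receptor tyrosine kinase that binds Wnts, by 0.59 ± 0.09 (adjusted p = 0.00868). The other Frizzled gene with a low p, lin-17, was at 0.53 ± 0.15 and not called (adjusted p = 0.0847). Of 5 ligands cwn-1 rose (0.61 ± 0.15, adjusted p = 0.0474), and cwn-2 was at 0.52 ± 0.16 (adjusted p = 0.105). None of 4 genes of Wnt secretion was called, with mom-1, the porcupine homologue, at 0.23 ± 0.09 (adjusted p = 0.198). Of 3 Dishevelled genes dsh-1 rose (0.53 ± 0.12, adjusted p = 0.0404). mig-5 was at 0.39 ± 0.10 at its brightest probe set (adjusted p = 0.063), while its other, of the _x_at kind that can bind related transcripts, was called (0.56, adjusted p = 0.0123). dsh-2 lay the other way, at 70.9, 59.6 and 70.4 on unc-37 arrays and 76.8, 100.3 and 94.3 on wild-type arrays. The groups did not overlap, and the difference of -0.43 ± 0.13 was not called (adjusted p = 0.0918). The dimmer probe set of dsh-2 was at 0.02 with overlapping groups (adjusted p = 0.921).

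Around the complex itself, 0 of 9 partner genes were called by limma. An unadjusted p below 0.05 was reached by 3 of the 9, against 3661 of 17118 among all genes. All 9 differences were above 0 (8 with a further quantile normalization), against 7973 of the 17118. The 9 genes hold the casein kinase 1 gene kin-20 and subunits of ubiquitin ligase and phosphatase 2A complexes, of kinds that act on beta-catenin in other animals. The one with the lowest p was skr-1, a Skp1-related gene, at 0.56 ± 0.15 (adjusted p = 0.0695), and a dimmer probe set of the phosphatase subunit gene pptr-2 was called higher (0.51, adjusted p = 0.0275). None of the 3 kinase-module genes of the WRM-1 route was called, with no unadjusted p below 0.05, and lit-1 was at 0.20 ± 0.16 (adjusted p = 0.534). Among 6 cofactors of TCF, unc-37 itself rose (0.50 ± 0.09, adjusted p = 0.0159), as did ctbp-1, a corepressor gene (0.78 ± 0.13, adjusted p = 0.0115). The other 2 probe sets of ctbp-1 were at -0.03 and 0.07, and the mean of its probe sets gave 0.27 with no call (adjusted p = 0.131). swsn-4, a chromatin remodelling ATPase gene, was at 0.28 ± 0.13 (adjusted p = 0.260).

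Of 7 known targets of Wnt signalling in other cells of the worm, the 3 Hox genes rose and the other 4 gave no call at their brightest probe set, though a dimmer one of the homeobox gene ceh-22 was called lower (-0.41, adjusted p = 0.0409). lin-39, the Hox gene of the mid-body, had intensities of 41.1, 38.1 and 43.2 on unc-37 arrays and 29.4, 27.3 and 23.9 on wild-type arrays, a difference of 0.60 ± 0.11 (adjusted p = 0.0143). mab-5, of the posterior body, was at 244, 167 and 310 on unc-37 arrays and 113, 117 and 149 on wild-type arrays, a difference of 0.89 ± 0.21 (adjusted p = 0.0478), and its second probe set was called as well (0.47, adjusted p = 0.0184). egl-5, of the tail, differed by 0.48 ± 0.11 (adjusted p = 0.0417). In each the arrays did not overlap. lin-39 lay below the median of all probe sets on every array and egl-5 on all but 1. Log2 values taken after adding 16 gave 0.41 for lin-39 (adjusted p = 0.025) and 0.35 for egl-5, which was then not called (0.0538). mab-5 was not called there either (0.82, adjusted p = 0.081), nor with a further quantile normalization (0.81, 0.0736). end-1, an endoderm gene of the embryo, was at -0.17 ± 0.08 and not called (adjusted p = 0.303).

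Of the 10 calls, 8 ended without at least 1 array, and that of dsh-1 also ended with the mean of its probe sets (0.32, adjusted p = 0.0997). mig-1 and cam-1 stayed called without each array in turn. mom-5 lost its call when wild-type replicate 2 was left out (adjusted p = 0.0525). That of unc-37 ended without wild-type replicates 1 and 2 (0.0509 and 0.0711), and those of ctbp-1 (0.0554 and 0.0525) and lin-39 (0.0617 and 0.0539) without unc-37 replicate 1 and wild-type replicate 2. mab-5 was not called without unc-37 replicates 1 and 3 and wild-type replicates 1 and 2 (0.0884 to 0.165). cwn-1 (0.0536 to 0.159) and dsh-1 (0.0669 to 0.138) were called only without wild-type replicate 3 among the 6 removals, and egl-5 in none of them (0.0597 to 0.121). Of the 10 called genes 7 had a further probe set, and in 2 of these, mig-1 and mab-5, one was called too. Other settings ended calls as well. When the prior variance followed mean intensity, cwn-1 (0.0538), dsh-1 (0.0707) and unc-37 (0.0522) were not called, and with a further quantile normalization cwn-1 (0.0578) and dsh-1 (0.0759) were not. With the replicate number as a block those of cwn-1 (0.0855), dsh-1 (0.0641), unc-37 (0.0588) and egl-5 (0.0987) ended, and after adding 16 that of cwn-1 (0.068).

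**Figure D3:**
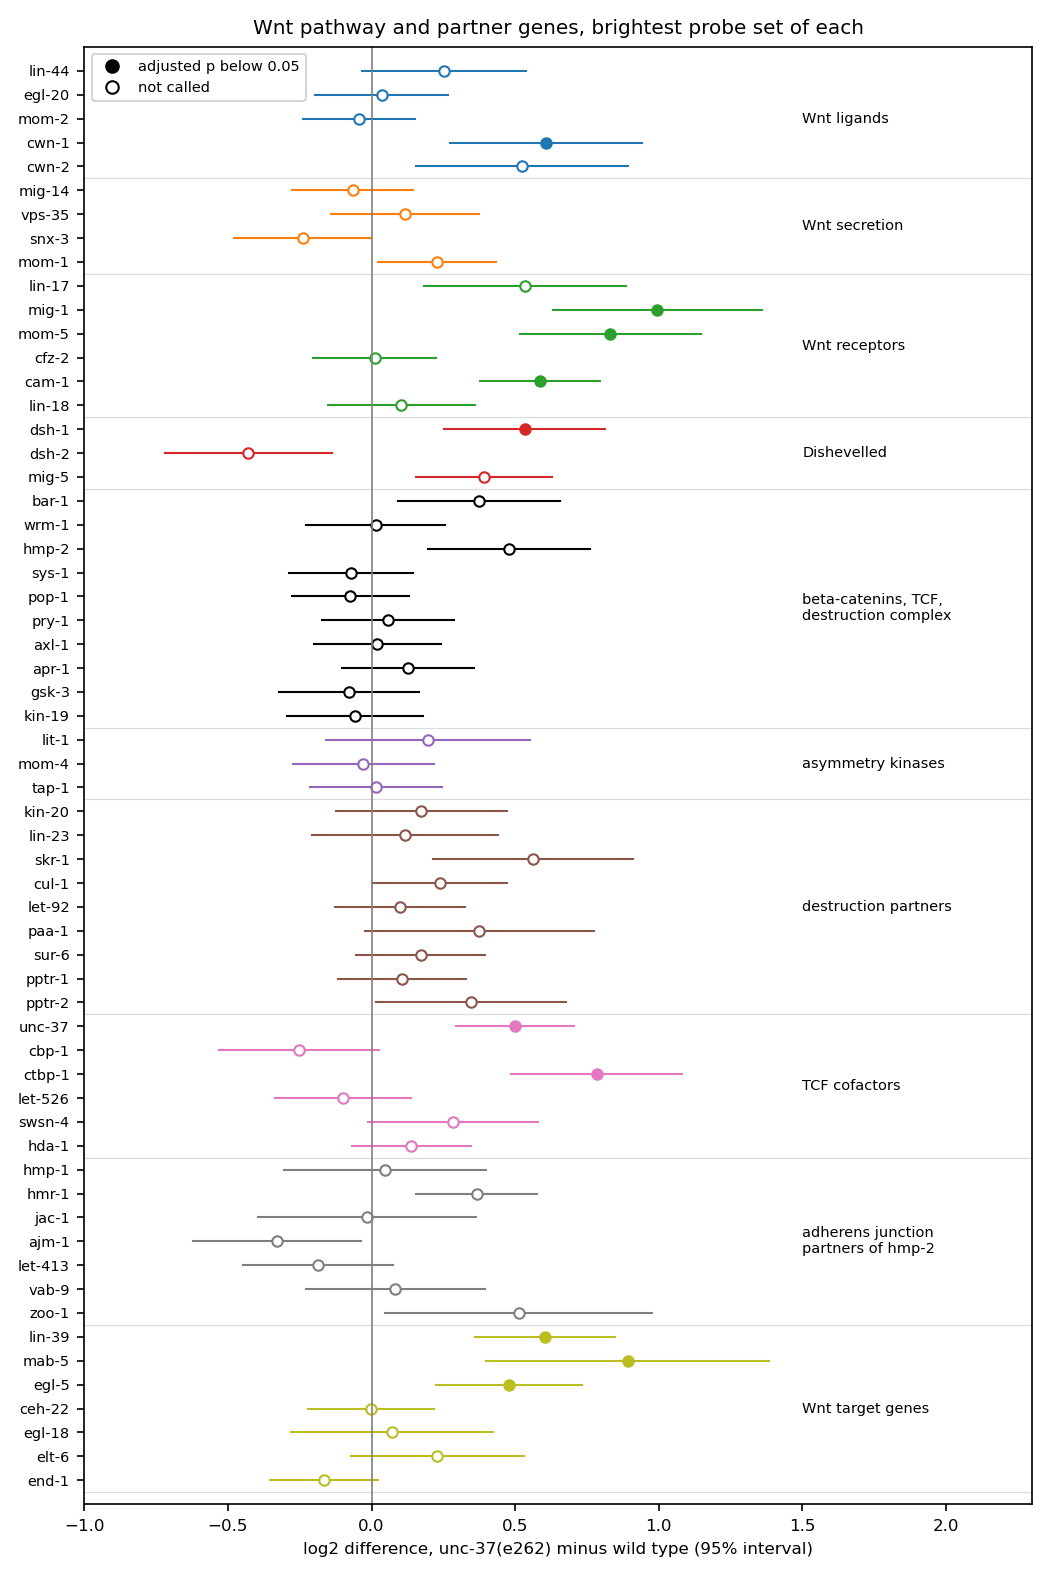
Log2 difference, unc-37(e262) minus wild type, with its 95% interval for the 10 members and 50 further genes, from ligands at the top to target genes at the bottom. Filled points passed an adjusted p below 0.05. They lie among ligands, receptors, Dishevelled, cofactors and targets. None lies among the 10 beta-catenin, TCF and destruction complex genes, a count near the 6.75% of all genes called.

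The 7 junction partners of hmp-2 gave no call by limma, with 3 at an unadjusted p below 0.05. The cadherin gene hmr-1 came closest, at 394, 378 and 423 on unc-37 arrays and 289, 322 and 316 on wild-type arrays, a difference of 0.37 ± 0.09 (adjusted p = 0.0539). Like hmp-2, it was higher on every unc-37 array. Its other 4 probe sets, all dimmer, were not called. ajm-1, an apical junction gene, lay lower on every unc-37 array at its brightest probe set, at -0.33 ± 0.13 (adjusted p = 0.190). In its dimmer probe sets, at -0.29 to -0.07, the groups overlapped. zoo-1, the ZO-1 homologue, was at 0.51 ± 0.20 with overlapping groups (adjusted p = 0.199). Of the 7 partners 4 lay above 0 as deposited, 3 after a further quantile normalization and 5 with each array centred on its median. The alpha-catenin gene hmp-1 is the other core member of that junction. Its brightest probe set was at 0.05 ± 0.15 (adjusted p = 0.906), with overlapping groups.

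For each member, the gene most like it over the 6 arrays was sought among the other 59 genes by Pearson's r. The closest pair was hmp-2 and hmr-1 (r = 0.98, and 0.97 between deviations from the group means). For bar-1 it was the receptor gene mig-1 (r = 0.96, and 0.96 between deviations). In both bar-1 and mig-1 unc-37 replicate 3 was the highest array. The wild-type arrays of each lay close together. axl-1 was most like the Frizzled gene cfz-2 (r = 0.94) and gsk-3 most like cbp-1, a histone acetyltransferase gene (r = 0.90), while the best r of the other 6 members lay between 0.69 and 0.84. Between deviations from the group means the r of other pairs was as high: 0.97 for pry-1 with sys-1, 0.96 for gsk-3 with cbp-1 and 0.95 for apr-1 with axl-1. These are the highest of 59 values from 6 points each. The arrays share the pull-down, the amplification and the genotype difference, so the values describe the arrays and are not tested. They hold for the brightest probe set of each gene only. Between the brighter and the dimmer probe set of the same gene, r over the 6 arrays was -0.85 for gsk-3, -0.34 for sys-1 and -0.25 for kin-19. It was 0.28 for pry-1 and 0.40 for wrm-1, so probe sets of the same gene were less alike than the pairs above.

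**Figure D4:**
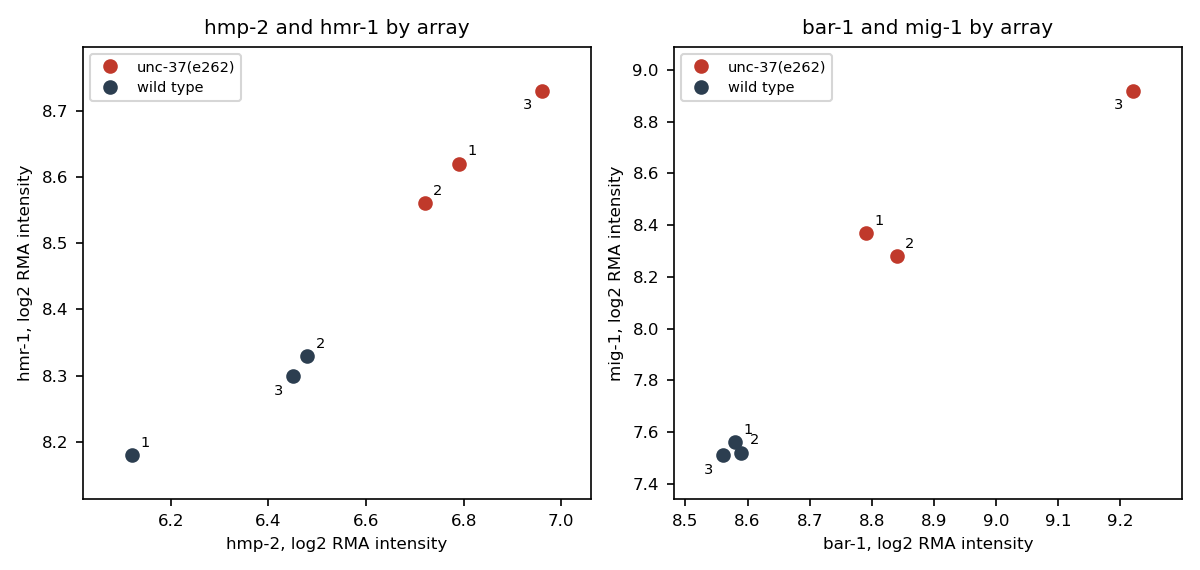
Log2 RMA intensity of hmr-1 against hmp-2 (left) and of mig-1 against bar-1 (right), 1 point per array with its replicate number, unc-37(e262) in red and wild type in dark. In the left plot the 6 arrays rise along a line, and in the right plot the wild-type arrays form a tight group with unc-37 replicate 3 farthest from it.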

How the data were processed

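Per the labels' protocols, the RNA went through 2 rounds of in vitro transcription to give biotin-labelled antisense RNA; such amplification favours 3' ends. The deposited values are probe set intensities made by the authors with RMA, per the submitters' processing notes. Their linear scale was read from the values, with medians of 50.1 to 52.4 per array. The sources used here give neither the RMA version nor a genome build. Values were log2 transformed, with no further normalization or filter. Over all 22548 probe sets, unc-37 minus wild type was fitted with lmFit and eBayes (limma 3.58.1 under R 4.3.3) in two-sided tests. P-values were Benjamini-Hochberg adjusted, and those under 0.05 were called. A gene stands at its brightest probe set. Of the probe sets 20766 named 1 gene, 887 several and 895 none. At most 16 values were identical between any 2 arrays. The fit was tested on simulated data. Plots used Python 3.11.15 and matplotlib 3.10.9.

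The members and lists were chosen with earlier results of these data known. Besides the members, the text names each pathway gene called and the uncalled gene of lowest p in each list, the gene most like each member where r is printed, and a few markers. hmp-1, dsh-2, ajm-1, zoo-1, dpy-2, elt-1, nhr-25, dpy-13, acr-5, kin-20, ceh-22, pptr-2 and the second probe sets were chosen after their values were seen. Of the marker lists, 4 of 5 B-class genes were higher, all but acr-5, and none of 9 intestinal, 5 pharyngeal and 8 germline genes was called. The values gave no sign that replicate numbers pair the arrays. The labels call the arrays biological replicates without saying whether cultures were separate, so p-values measure the spread between these arrays. The number of arrays limits the precision. The alternatives were a variance trend, array weights, filters on dim probe sets, other scalings, an offset of 16 before the log, a replicate block, leaving out arrays, other thresholds and means of a gene's probe sets.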

Additional observations from a re-analysis of the deposited data

How the results depend on the processing

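No member was called in 14 of 17 alternatives by gene and 13 of 16 by probe set. The exceptions were array weights, each array centred on its median and an adjusted p below 0.1, each with 1 member called higher, hmp-2. bar-1, hmp-2, pop-1, apr-1 and gsk-3 kept their sign in every alternative run on them, and the other members did not in at least 1. With array weights wrm-1's brighter probe set turned to -0.045 and axl-1 to -0.043. With a further quantile normalization wrm-1's dimmer probe set turned to 0.017 and pry-1 to -0.045, and with centring wrm-1's dimmer one was at 0.012. As means of their probe sets wrm-1 turned to -0.00037, pry-1 to -0.058, sys-1 to 0.12 and kin-19 to 0.085. Leaving out 1 array gave -0.052 to 0.097 for wrm-1's brighter probe set, -0.070 to 0.016 for its dimmer one, -0.031 to 0.079 for axl-1, -0.0066 to 0.12 for pry-1 and -0.13 to 0.031 for kin-19. The cause of these turns was not tested, beyond the change of probe sets in a mean.

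Over the array, 867 probe sets were called higher and 580 lower, and 1367 higher with array weights. At an adjusted p below 0.1, 1375 were higher and 963 lower, and 1 pathway gene, dsh-2, was lower at its brightest probe set. Leaving out 1 array gave 336 to 1049 higher and 276 to 628 lower (fewest higher without wild-type replicate 2), and 2 to 11 of the 50 pathway genes higher. With the replicate number as a block, 604 and 461 were called, no member and 6 pathway genes higher (hmp-2: adjusted p = 0.0924). Deviations of same-numbered arrays correlated at -0.19 to -0.10, so the values gave no sign of a pairing by number. Such correlations cannot exclude shared handling, which the labels do not describe. With 3 arrays a group and SEs of 0.09 to 0.14 for members, small differences could not be detected, and in dim probe sets signal over background limits them further.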
